A study of Mus musculus with 73 samples.

Results

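*Clca4a*, *Ptprr*, *Mtmr11* and *Slc5a4a* are 4 of the 17399 genes counted in the jejunal epithelium of mice given diphtheria toxin to ablate their *Lgr5*+ cells, or saline. They were chosen by their counts in that experiment, which were lower after ablation than in controls in both batches of samples. Those counts are therefore given as a description with no test. Their levels in single epithelial cells and in microdissected stroma played no part in the choice. *Clca4a* belongs to the CLCA family, named for its early description as calcium-activated chloride channel regulators. *Ptprr* encodes a receptor-type tyrosine phosphatase with a kinase interaction motif, which binds and dephosphorylates MAP kinases. *Mtmr11* encodes a myotubularin-related protein that lacks the catalytic residues of the active 3-phosphoinositide phosphatases of its family. *Slc5a4a* encodes a member of the SLC5 family of sodium-coupled solute carriers, the family of the glucose transporter SGLT1.

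Enterocytes are born in the crypt, move up the villus and are shed at its tip, and their expression changes along the way. Antimicrobial genes are known to peak near the villus bottom, whereas genes of purine handling peak at the tip. The latter include *Ada* (adenosine deaminase), *Nt5e* (the ectonucleotidase CD73) and *Slc28a2* (a nucleoside transporter). Villus tip telocytes (VTTs) are *Lgr5*+ stromal cells that lie under the tip epithelium.

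The epithelial samples came from 8 male mice, all heterozygous for Lgr5(GFP-ires-DTR/+), a knock-in that places the diphtheria toxin receptor under the *Lgr5* promoter. At 4 months of age, 4 mice received diphtheria toxin (DT) and 4 mice received the saline vehicle, and tissue was taken 48 h later. Controls and DT-injected mice thus carried the same allele. DT acts on all *Lgr5*-expressing cells, so crypt base stem cells were targeted together with VTTs. Single cells from 8 mice and stroma laser-capture microdissected (LCM) from 5 mice came from C57BL/6 males aged 3 months with no injection.

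In the GRCm38 build *Clca4a* lies on the minus strand of chromosome 3 at 144952480 to 144975045, with 14 exons. Its paralog *Clca4b* lies 19.95 kb away on the same strand. *Mtmr11* lies on the plus strand of chromosome 3 at 96162004 to 96171718. *Ptprr* spans 257 kb of the plus strand of chromosome 10, from 116018213 to 116274932. *Slc5a4a* lies on the plus strand of chromosome 10 at 76147451 to 76189265, with 15 exons, and its paralog *Slc5a4b* lies 36.5 kb away on the opposite strand. Near-identical copies can share reads. Of the 66-base words of the *Clca4a* transcript, 14.5% also occurred in *Clca4b*, but none of those in its last 500 bases did, which is where 3′ counting reads fall. *Slc5a4a* and *Slc5a4b* shared no such word. This check fits the UMI counts of the epithelium and the single cells. It covers annotated transcripts only, of 2055 bases for *Slc5a4a* and 3202 for *Slc5a4b*. Reads beyond an annotated end were not checked. The stromal values came from shorter reads that were not counted at the 3′ end, and sharing was not tested for them.

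The 250 bases before the annotated RefSeq start (GRCm38.p6, plus strand, 5′ to 3′) are shown for the 2 genes that parted in the single cells described further on and that had 1 start in the table. The *Mtmr11* window is chr3:96161720-96161969 and the *Slc5a4a* window is chr10:76147201-76147450. *Ptprr* had 4 starts, among which 3′ counts do not choose, and *Clca4a* was not matched.
Mtmr11: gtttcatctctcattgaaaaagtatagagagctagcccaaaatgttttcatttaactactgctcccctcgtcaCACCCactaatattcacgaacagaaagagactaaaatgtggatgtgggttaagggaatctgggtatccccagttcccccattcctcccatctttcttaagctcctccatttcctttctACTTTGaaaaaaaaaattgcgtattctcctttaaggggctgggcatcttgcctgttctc
Slc5a4a: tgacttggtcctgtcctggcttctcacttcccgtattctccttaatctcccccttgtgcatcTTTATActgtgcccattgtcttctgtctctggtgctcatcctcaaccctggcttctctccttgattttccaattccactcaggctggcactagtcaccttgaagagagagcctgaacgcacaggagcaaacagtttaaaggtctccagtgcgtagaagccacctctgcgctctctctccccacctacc
Capitals mark matches to short motifs, which were searched on both strands. The letters searched were AGATAA for the GATA factors, TTTATG for CDX factors, TATAAA for the box of core promoters, CAAAGT for a part of the HNF4 motif, and CACCC for KLF factors. The *Mtmr11* window held CACCC 177 to 173 bases before the start and CAAAGT on the minus strand at 59 to 54 bases. The *Slc5a4a* window held TATAAA on the minus strand at 188 to 183 bases. Of 32851 promoters with windows of this length, 52.0% held CACCC, 12.6% held CAAAGT and 12.4% held TATAAA, 10.8% held TTTATG and 9.99% held AGATAA. A match of letters is a description and not a bound site.

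The epithelium of control mice gave 175 to 620 CPM of *Clca4a*, that is, unique molecular identifiers (UMIs) per 1000000 UMIs of the sample, against 75.4 to 104 after DT. In controls 1 to 4 the values were 389, 175, 620 and 289, and in DT mice 1 to 4 they were 104, 75.4, 94.5 and 103. Each DT mouse was below each control, and the controls varied more among themselves than the DT mice did. The means were 368 ± 189 and 94.1 ± 13.1 (SD, n = 4 each), a ratio of 3.92. The fitted log2 difference was -1.99 with a standard error (SE) of 0.29.

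*Ptprr*, the MAP kinase phosphatase, had 72.5, 72.1, 91.4 and 74.5 CPM in controls 1 to 4. After DT it had 37.1, 40.1, 34.5 and 44.0. The groups did not overlap, and control 3 stood above the other 3 controls. The means were 77.7 ± 9.25 and 38.9 ± 4.10 (SD, n = 4 each), a ratio of 1.99, with a fitted log2 difference of -1.05 (SE 0.16). This was the smallest difference of the 4 genes.

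*Mtmr11*, the myotubularin relative, had 37.3, 29.4, 25.9 and 22.0 CPM in controls 1 to 4 and 16.0, 13.1, 8.76 and 9.69 in DT mice 1 to 4. The groups did not overlap, and in both groups the mice of batch a were above those of batch b. The means were 28.7 ± 6.50 and 11.9 ± 3.31 (SD, n = 4 each), a ratio of 2.41, with a fitted log2 difference of -1.37 (SE 0.19).

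*Slc5a4a*, the SLC5 carrier, had 15.9, 10.7, 29.5 and 40.3 CPM in controls 1 to 4. After DT it had 6.74, 2.42, 4.78 and 11.5. It was the only one of the 4 whose groups overlapped, since DT mouse 4 was above control 2. The means were 24.1 ± 13.4 and 6.35 ± 3.83 (SD, n = 4 each), a ratio of 3.80, with a fitted log2 difference of -2.08 (SE 0.34).

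**Figure D1:**
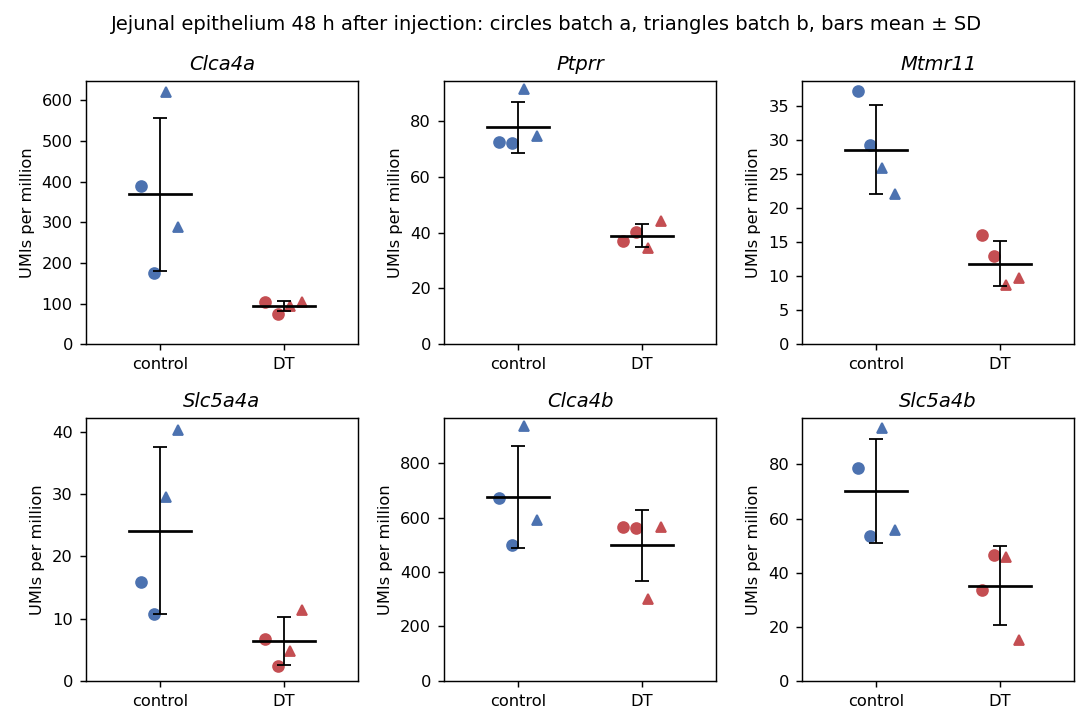
CPM in the epithelium of each control and DT mouse for the 4 genes and the paralogs *Clca4b* and *Slc5a4b*; each point is 1 mouse and the bar is the group mean. *Clca4a*, *Ptprr* and *Mtmr11* have no DT point at or above a control point, *Slc5a4a* has 1 overlapping pair, and the *Clca4b* groups overlap.

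A lower value within each batch was a condition of the choice, and each batch holds 2 mice per group. The log2 ratios of DT over control in batches a and b were -1.66 and -2.21 for *Clca4a*, -0.91 and -1.08 for *Ptprr*, -1.20 and -1.38 for *Mtmr11*, and -1.54 and -2.10 for *Slc5a4a*. For scale, edgeR with Benjamini-Hochberg adjustment over 8986 genes called 30 lower after DT (0.334%) and 2 higher (0.0223%) at an adjusted p under 0.05, and 3 lower with the replicate number as a block. In 134 genes (1.49%) all DT values were below all control values, and 3 of the 4 chosen genes were among them, as their choice favours. The libraries held 748458 to 4210158 UMIs. In bulk tissue, fewer cells of a type and less RNA per cell cannot be told apart.

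The paralogs allowed a comparison within each family. *Clca4b* had 672, 501, 936 and 592 CPM in controls 1 to 4 and 566, 561, 300 and 564 after DT. Its groups overlapped, and its fitted log2 difference was -0.50 (SE 0.27, edgeR adjusted p = 0.345). In batch a the log2 ratio of *Clca4b* was -0.06, where that of *Clca4a* was -1.66, and in batch b they were -0.82 and -2.21. The 4 genes were chosen for their fall in both batches and the paralogs were not, which favours a difference between them. *Slc5a4b* had 78.8, 53.4, 93.3 and 55.7 in controls and 33.7, 46.4, 45.9 and 15.0 after DT. Every DT mouse was below every control for *Slc5a4b*, although its fitted log2 difference of -1.05 (SE 0.32) did not pass the adjustment over all genes (edgeR adjusted p = 0.216).

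The other genes of the 4 families were read against the low share of all genes called, 0.334% lower and 0.0223% higher, so 0 calls in them is near that background. In the CLCA family 0 of 5 tested genes fell or rose, with a median log2 difference of -0.29 against 0.00 over all genes. The values of *Clca3b*, *Clca1* and *Clca3a2* were 0.21, -0.35 and -0.29. Among tyrosine phosphatases that carry the kinase interaction motif or are of receptor type, 0 of 8 passed, with a median of -0.24. Of these *Ptprf* was at -0.11, *Ptprh* at -0.57, *Ptprd* at 0.02 and *Ptpre* at -0.79. Among myotubularins and enzymes of 3-phosphoinositides 0 of 17 passed, with a median of -0.11, and *Becn1*, *Mtmr4*, *Sbf2* and *Mtm1* were at -0.05, -0.33, -0.35 and -0.49. Of 7 SLC5 carriers 0 passed, with a median of -0.68, which included *Slc5a1* (SGLT1) at -0.44, *Slc5a12* at -0.96 and *Slc5a11* at -0.68.

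The same background holds for genes linked to the roles of the 4. Among MAP kinases, their targets and their feedback inhibitors 0 of 11 passed, with a median log2 difference of -0.03, and *Mapk13*, *Mapk3* and *Ier2* were at -0.18, -0.03 and 0.09. Among genes of sugar digestion and uptake 0 of 11 passed, with a median of -0.27. The brush border hydrolases *Mgam*, *Sis* and *Lct* were at -0.64, -0.09 and -0.73.

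Markers of several cell types moved with the groups. Over all genes tested, 0.334% were called lower and 0.0223% higher, and in 1.49% all DT values were below all control values. *Ada* (-2.06, adjusted p = 0.0106) and *Nt5e* (-2.66, adjusted p = 0.0381) fell in the edgeR test, whereas *Slc28a2* was at -1.61 (adjusted p = 0.125). The summed level of these 3 tip genes was 689 to 834 CPM in controls and 108 to 291 after DT. The summed level of 9 tuft cell markers was 69.5 to 130 in controls and 22.0 to 43.5 after DT. Of these, 6 were tested and 5 fell, namely *Dclk1*, *Trpm5*, *Sh2d6*, *Rgs13* and *Alox5ap*. The summed level of 5 Paneth cell markers was 1014 to 3333 in controls and 342 to 764 after DT, and *Itln1* and *Mptx2* fell. The sum of 5 epithelial markers overlapped, at 4377 to 5432 in controls and 3898 to 4864 after DT, as did that of 10 pan-enterocyte genes. The sum of 5 stem cell markers, with *Lgr5* among them, was 109.9 to 199 in controls and 168 to 234 after DT. The fitted log2 difference of *Lgr5* itself was -0.75 (SE 0.32, edgeR adjusted p = 0.258). Those of *Olfm4*, *Ascl2*, *Smoc2* and *Axin2* were 0.36, 1.06, 0.37 and 0.28. No marker passed among 6 goblet, 6 enteroendocrine, 5 stem, 8 proliferation and 9 immune genes tested, nor did the 1 endothelial gene tested. With so low a share of all genes called, 0 calls in these lists is near background and does not show that they were unchanged. Of 6 mesenchymal genes 0 reached the level for testing. The part of these cell types in the values of the 4 genes was not tested.

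Genes whose log2 levels followed those of the 4 most closely over the 8 epithelial samples are given as a description, since the samples share the group difference, the batches and their depth. For *Clca4a* they were *Emp1* (Pearson r = 0.978), *Pmp22* (0.969) and *Stx3* (0.968). For *Ptprr* they included the tuft marker *Sh2d6* (0.933) and *Hspa12a* (0.932). *Asap1* (0.979), *Ell2* (0.969) and *Trim15* (0.968) were nearest to *Mtmr11*. *Vav1* (0.948), *Rcn1* (0.931) and *Mapk1ip1l* (0.919) were nearest to *Slc5a4a*.

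Whether the 4 genes mark villus tip enterocytes was asked in single cells sorted into plates from the jejunum of mice with no injection. Of 2347 cells kept, 1215 had at least 1 UMI of *Epcam*, the epithelial adhesion molecule. Of these, 242 cells (19.9%) had 3 or more UMIs of *Ada*, *Nt5e* and *Slc28a2* together and are called tip-gene-high cells here, and 973 had fewer. The sorting gates set these numbers: 408 of the *Epcam*+ cells came from gates for cell pairs, and the gate for CD45 singlets gave 45 tip-gene-high cells and 7 others. A plate well barcode recurred on other plates for 327 of 367 barcodes, so a cell was identified by its plate and barcode together. The median depth was 1711.5 UMIs in tip-gene-high cells and 2171 in the other *Epcam*+ cells.

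*Clca4a* marked the tip-gene-high cells, *Ptprr* and *Mtmr11* had moderately higher pooled values in them, and 54 of the 55 *Epcam*+ cells with *Slc5a4a* were other cells. *Clca4a* had at least 1 UMI in 204 of the 242 tip-gene-high cells (84.3%, exact Clopper-Pearson 95% interval 79.1 to 88.6%) and in 135 of the other 973 (13.9%, 11.8 to 16.2%). *Ptprr* was found in 27.3% (21.8 to 33.3%) and 9.66% (7.88 to 11.7%) of them. *Mtmr11* was found in 26.9% (21.4 to 32.9%) and 9.87% (8.06 to 11.9%). *Slc5a4a* was found in 1 tip-gene-high cell (0.413%, 0.0105 to 2.28%) and in 54 other cells (5.55%, 4.196 to 7.18%). These intervals cover counting error only.

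The shares kept their order when each cell was thinned to 400 UMIs, where the expected shares were 56.0% and 3.86% for *Clca4a*, 7.09% and 2.25% for *Ptprr*, 7.54% and 2.04% for *Mtmr11*, and 0.0363% and 0.926% for *Slc5a4a*. In UMIs per 100000, the pooled levels in tip-gene-high and other cells were 283 and 9.21 for *Clca4a*, a ratio of 30.7. They were 16.4 and 5.17 for *Ptprr*, a ratio of 3.17, and 17.1 and 4.74 for *Mtmr11*, a ratio of 3.62. For *Slc5a4a* the ratio was 0.0657, from 1 UMI against 73, with a counting interval of 0.00164 to 0.378.

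Free RNA can place UMIs in cells that do not express a gene. In 334 stromal cells with no *Epcam* UMI and with *Pdgfra*, *Dcn* or *Col3a1*, at a median depth of 1021 UMIs, *Clca4a* was found in 0.898%, *Ptprr* in 0.299% and *Mtmr11* in 2.69%. *Slc5a4a* was found in 0 of the 334. The shares in both classes of *Epcam*+ cells were above these values. For *Slc5a4a* in tip-gene-high cells, however, the excess was 1 cell, and its interval overlapped that of the stromal cells, 0 to 1.10%. Thinned to 400 UMIs, the shares in stromal cells were 0.581%, 0.212% and 0.627% for *Clca4a*, *Ptprr* and *Mtmr11*.

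Cells with more tip-gene UMIs had *Clca4a* more often at each step. The share was 11.6% in 881 cells with no tip-gene UMI, 27.7% in 65 cells with 1, 55.6% in 27 cells with 2, 75.9% in 79 cells with 3 to 9, and 88.3% in 163 cells with 10 or more. The threshold of 3 thus cut through a gradient for this gene. *Ptprr* was found in 8.51%, 18.5%, 25.9%, 26.6% and 27.6% of the same cells, and *Mtmr11* in 9.31%, 10.8%, 25.9%, 22.8% and 28.8%. The median depths in the same order of bins were 2136, 2814, 2499, 1850 and 1636 UMIs. Cells with 3 to 9 and with 10 or more tip-gene UMIs were thus the shallowest. Thinned to 400 UMIs, the shares were 2.01%, 4.55%, 4.65%, 6.09% and 7.57% for *Ptprr*. For *Mtmr11* they were 1.90%, 2.17%, 6.16%, 5.09% and 8.72%. *Slc5a4a* was found in 5.45%, 7.69%, 3.70%, 1.27% and 0%. It was in 0 of the 163 cells with the most tip-gene UMIs, which allows a share of cells with a UMI of up to 1.84% at 3 counts (exact upper bound 2.24%).

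**Figure D2:**
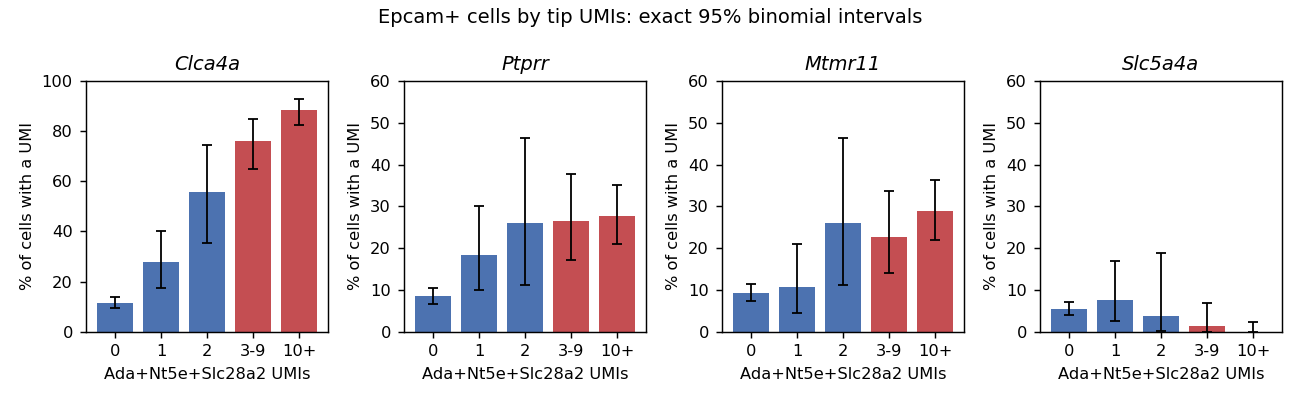
Share of *Epcam*+ cells with at least 1 UMI of each gene, by the number of *Ada*, *Nt5e* and *Slc28a2* UMIs in the cell; error bars are exact 95% binomial intervals. *Clca4a* climbs from 11.6% to 88.3%, *Ptprr* and *Mtmr11* lie between 22.8% and 28.8% from 2 UMIs up, and *Slc5a4a* goes to 0%.

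Cells of a mouse are not replicates, so the classes were compared over the 4 mice that had at least 5 cells of each class (A, E, G and H, with 235 tip-gene-high and 631 other cells). With 4 mice a two-sided exact permutation test cannot give a p below 0.125, so it cannot reach 0.05. *Clca4a* had 314, 454, 204 and 292 UMIs per 100000 in the tip-gene-high cells of mice A, E, G and H, and 11.3, 8.12, 11.3 and 4.68 in the others. The classes were far apart in every mouse. The mean log2 difference was 5.16 ± 0.80 (SD, n = 4, exact p = 0.125, 0.15 after Benjamini-Hochberg adjustment over 6 genes).

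*Ptprr* had 20.99, 12.5, 16.9 and 1.55 UMIs per 100000 in the tip-gene-high cells of mice A, E, G and H and 6.15, 4.74, 6.18 and 5.46 in the others. It was higher in 3 of 4 mice, and mouse H, with 1 UMI in 22 tip-gene-high cells, went the other way. The mean log2 difference was 0.86 ± 1.45 (SD, n = 4, exact p = 0.25) and 1.58 without mouse H. *Mtmr11* had 20.2, 6.26, 13.2 and 12.4 in the tip-gene-high cells and 5.45, 4.06, 6.36 and 1.56 in the others. It was higher in 4 of 4 mice, by 1.65 ± 0.88 (SD, n = 4, exact p = 0.125).

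*Slc5a4a* had 0.375 UMIs per 100000 in the tip-gene-high cells of mouse A, from 1 UMI, and 0 in those of mice E, G and H. The other cells had 1.19, 6.09, 1.82 and 12.5. It was lower in 4 of 4 mice, with a mean log2 difference of -2.44 ± 1.22 (SD, n = 4, exact p = 0.125), a value that rests on the 0.5 UMI added to each sum.

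**Figure D3:**
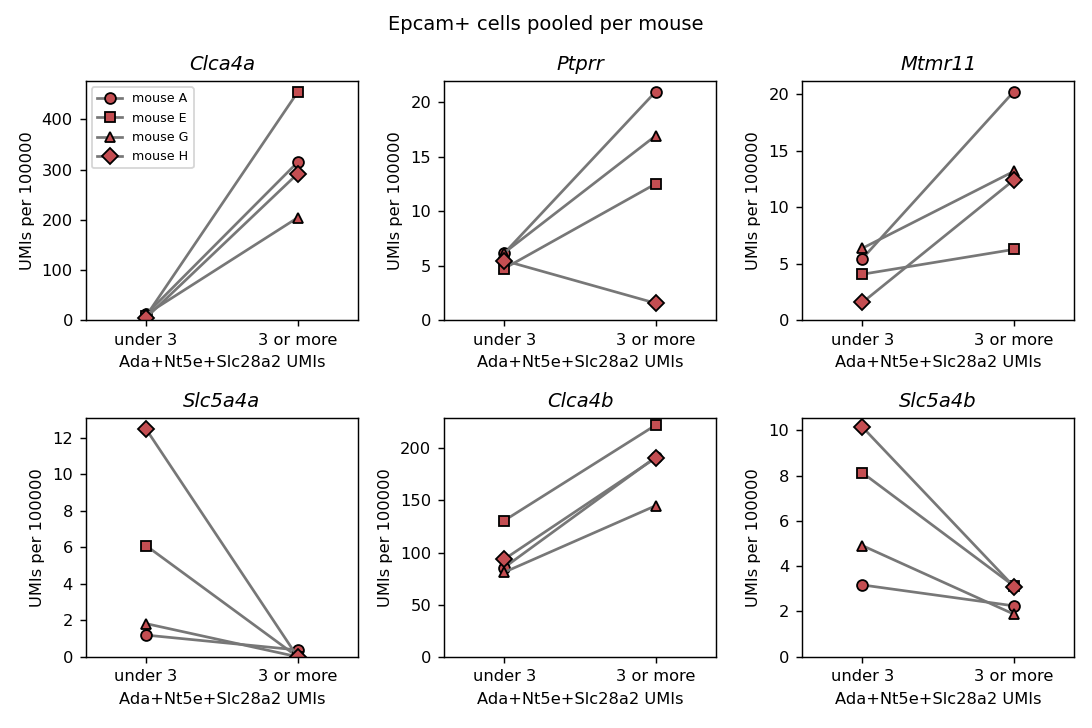
UMIs per 100000 summed over the *Epcam*+ cells of each mouse, for cells with under 3 and with 3 or more tip-gene UMIs; a line joins the 2 classes of a mouse. *Clca4a* and *Clca4b* climb in all 4 mice, *Mtmr11* climbs in 4, *Ptprr* in 3, and *Slc5a4a* and *Slc5a4b* drop in 4.

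Fitted across all genes with the mouse as a term, edgeR called 433 of 2062 tested genes higher (21%) and 418 lower (20.3%) in tip-gene-high cells. *Clca4a* was the only one of the 4 with enough counts for this fit. It was higher by 5.47 on the log2 scale (SE 0.29, edgeR adjusted p = 1.8e-30), the sixth-largest difference among the genes tested. The 5 genes above it were *Cldn4* (a tight junction claudin), *Gm14085*, *2010109I03Rik*, *Gprc5a* and *2010107G12Rik*. *Cldn4* had a mean of 8.55 UMIs per 100000 in tip-gene-high cells and was at 0 in the others. *Gm14085* had 106 and 0.293.

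Without the filter on low counts, 16129 genes were tested, and 327 were called higher and 738 lower, with a median log2 difference of -0.84. In that fit *Ptprr* (1.39, SE 0.45, edgeR adjusted p = 0.0307) and *Mtmr11* (1.71, SE 0.46, adjusted p = 0.00461) were higher, and *Slc5a4a* was lower (adjusted p = 0.0278). The fitted size for *Slc5a4a* depends on the prior count, since 3 of its 4 tip-gene-high sums were 0.

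The paralogs differed less between the classes. *Clca4b* had 192, 222, 145 and 191 UMIs per 100000 in the tip-gene-high cells of mice A, E, G and H and 85.6, 131, 81.1 and 93.6 in the others, and it was higher by 1.37 (SE 0.23, edgeR adjusted p = 9.06e-07). The log2 difference of *Clca4a* exceeded that of *Clca4b* by 4.19 ± 0.83 in 4 of 4 mice (SD, n = 4, exact p = 0.125, the smallest possible). *Slc5a4b* had 2.25, 3.13, 1.88 and 3.102 in the tip-gene-high cells and 3.17, 8.12, 4.91 and 10.1 in the others. The drop of *Slc5a4a* exceeded that of *Slc5a4b* by 1.49 ± 0.80 in 4 of 4 mice (SD, n = 4, exact p = 0.125), a value that also rests on the added 0.5 UMI. These were among 7 differences between gene pairs, all with an adjusted p of 0.125.

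Genes of known zonation followed the same classes. Of 5 other tip enterocyte genes tested, 5 were higher in tip-gene-high cells, such as *Klf4* (2.08, SE 0.29) and *Fos* (1.77, SE 0.29). Of 9 antimicrobial genes of the villus bottom 9 were lower, such as *Lypd8* (-2.77, SE 0.28) and *Reg3b* (-1.60, SE 0.27). The next lists are read against the 21% and 20.3% of all genes called, and so few genes were tested in them that their counts show nothing particular to the lists. Among the sugar genes, the trehalase *Treh* was higher (1.10, SE 0.27), while *Slc2a2* (the glucose transporter GLUT2), *Sis* and *Tkfc* were lower by -1.10, -1.58 and -1.07 on the log2 scale, and 5 of 9 tested did not pass. *Ptprf* (0.95) was higher among 2 phosphatases tested and *Dusp6* (1.58), a phosphatase of ERK, among 4 MAP kinase genes. Of the 2 myotubularin-list genes tested and the 1 SLC5 carrier, *Slc5a1*, 0 passed.

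Cells that held *Slc5a4a* had few tip-gene UMIs. In the 55 cells with a *Slc5a4a* UMI, the 3 tip genes summed to 5.11 UMIs per 100000 and the antimicrobial genes to 2467. In the 339 cells with a *Clca4a* UMI, these sums were 592 and 1509. The pan-enterocyte genes summed to 3859 in the *Slc5a4a* cells and 2973 in the *Clca4a* cells. In the *Epcam*+ cells without *Slc5a4a* the antimicrobial genes summed to 2105 and the pan-enterocyte genes to 2733, and in those without *Clca4a* to 2376 and 2747. The sum of pan-enterocyte genes thus differed little with *Clca4a* (2973 against 2747) and was higher in cells with *Slc5a4a* (3859 against 2733). Of the cells with each gene, 1.82% of the *Slc5a4a* cells against 60.2% of the *Clca4a* cells were tip-gene-high. The median depth of the *Slc5a4a* cells was 3732 UMIs and that of the *Clca4a* cells 1933.

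The genes were found together in the same cells to different degrees. *Clca4a* was found in 99 of 160 cells with *Ptprr* (61.9%), 82 of 161 cells with *Mtmr11* (50.9%) and 9 of 55 cells with *Slc5a4a* (16.4%). Its share among all *Epcam*+ cells was 27.9%. *Slc5a4b* was found in 20 of the 55 *Slc5a4a* cells (36.4%), against 9.47% of all *Epcam*+ cells. Deeper cells hold more genes, and the *Slc5a4a* and *Slc5a4b* cells had medians of 3732 and 3529 UMIs against 2061 over all *Epcam*+ cells.

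Rare classes gave few counts. Among 30 *Epcam*+ cells with 3 or more UMIs of proliferation markers and under 3 tip-gene UMIs, *Clca4a* and *Ptprr* were found in 0, which allows a share of cells with a UMI of up to 10.0% at 3 counts (exact upper bound 11.6%). *Mtmr11* and *Slc5a4a* were found in 1 cell each. Among 38 such cells with goblet markers, *Clca4a* was found in 1, *Ptprr* in 3, *Mtmr11* in 0 and *Slc5a4a* in 2. Only 2 cells had 3 or more tuft marker UMIs, and 1 of them held *Mtmr11*.

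Values within single gates are given because the gates set the class sizes. Within the gate for *Epcam* singlets, *Clca4a* had 319 UMIs per 100000 in 18 tip-gene-high cells and 6.43 in 27 others, *Mtmr11* had 10.9 and 2.14, and *Slc5a4a* had 0 and 17.2. *Ptprr* had 1.82 and 4.29 there, from 1 and 4 UMIs. This gate was 1 plate of mouse H, so its cells are part of the values of mouse H above and no separate check. Within the CD45 singlet gate, the 45 tip-gene-high cells had 178 of *Clca4a*, 16.0 of *Ptprr* and 14.0 of *Mtmr11*, and the 7 others had 0, 11.7 and 0. *Slc5a4a* was at 0 and 17.5 there. Without the gates for cell pairs *Clca4a* was higher by 5.30 (SE 0.31, edgeR adjusted p = 1.28e-10).

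The LCM samples were cut from stroma in 4 zones, and RNA of the adjoining epithelium was also present in them, as epithelial markers show. Sections were averaged per mouse, which gave 5 mice for each villus zone and 3 for the crypt. *Vil1* and *Cldn7*, which mark epithelium, summed to medians of 421 TPM (transcripts scaled by length and to a common total) in crypt, 378 at the villus bottom, 306 in the center and 288 at the tip. The range at the tip, 185 to 858, overlapped that at the bottom, 178 to 536.

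*Clca4a* was higher at the villus tip than at the bottom in 5 of 5 mice. At the tip of mice 1 to 5 it had 588, 49.3, 132, 14.4 and 119 TPM. At the bottom it had 110, 39.1, 6.52, 5.14 and 1.99. The zones overlapped, since the bottom values of mice 1 and 2 were above the tip value of mouse 4. The center had 72.2, 4.74, 38.0, 5.43 and 2.51, and the crypt of mice 1 to 3 had 999, 1.14 and 58.2. In those crypts *Ada* had 3565, 1.68 and 87.2 TPM, *Nt5e* 154, 0.214 and 2.43, and *Slc28a2* 383, 12.1 and 12.3. The sum of *Vil1* and *Cldn7* there was 1065, 49.3 and 421 TPM. On the log2(TPM + 1) scale, tip exceeded bottom by 2.71 for *Clca4a* (SE 1.33, 95% interval -0.03 to 5.44). It did not pass limma's test over 11962 genes (adjusted p = 0.975). That fit has no mouse term. With the mouse as a block the SE was 0.90 and the interval 0.80 to 4.61, and the adjusted p was 0.518. In the fit with no mouse term 0 genes passed in either direction (0%), and 529 had an unadjusted p under 0.05. With the mouse as a block 0 genes passed, and 955 had an unadjusted p under 0.05. The exact permutation p over 5 mice was 0.0625, the smallest possible, and 0.375 adjusted over 12 tests.

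*Ptprr* had 20.02, 14.7, 32.9, 51.4 and 57.0 TPM at the tip of mice 1 to 5 and 22.2, 5.95, 9.76, 18.9 and 12.1 at the bottom. It was higher at the tip in 4 of 5 mice, with mouse 1 slightly lower. The log2(TPM + 1) difference was 1.25 (SE 0.66, 95% interval -0.12 to 2.61, exact permutation p = 0.125), and the interval was 0.13 to 2.37 with the mouse as a block (limma adjusted p = 0.618). The center had 7.55 to 25.2 TPM and the crypt 8.22 to 37.6, both overlapping the bottom.

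*Mtmr11* had 127, 19.9, 21.7, 1.47 and 5.84 TPM at the tip and 21.6, 5.33, 5.68, 2.16 and 1.03 at the bottom. It was higher at the tip in 4 of 5 mice, with mouse 4 lower. The log2(TPM + 1) difference was 1.48 (SE 1.17, 95% interval -0.95 to 3.90, exact permutation p = 0.125). The center ran from 0 to 73.6 TPM and the crypt from 1.603 to 74.3.

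*Slc5a4a* was low in every zone and did not reach the mean of 5 TPM needed for the test across genes. It had 1.31, 2.04, 0.165, 1.18 and 0.890 TPM at the tip of mice 1 to 5 and 7.34, 0.445, 0.459, 0 and 0 at the bottom. It was listed at 0 in 3 of 8 tip samples, 5 of 8 bottom samples, 4 of 7 center samples and 4 of 6 crypt samples. The log2(TPM + 1) difference of tip and bottom was 0.19 (exact permutation p = 0.75).

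**Figure D4:**
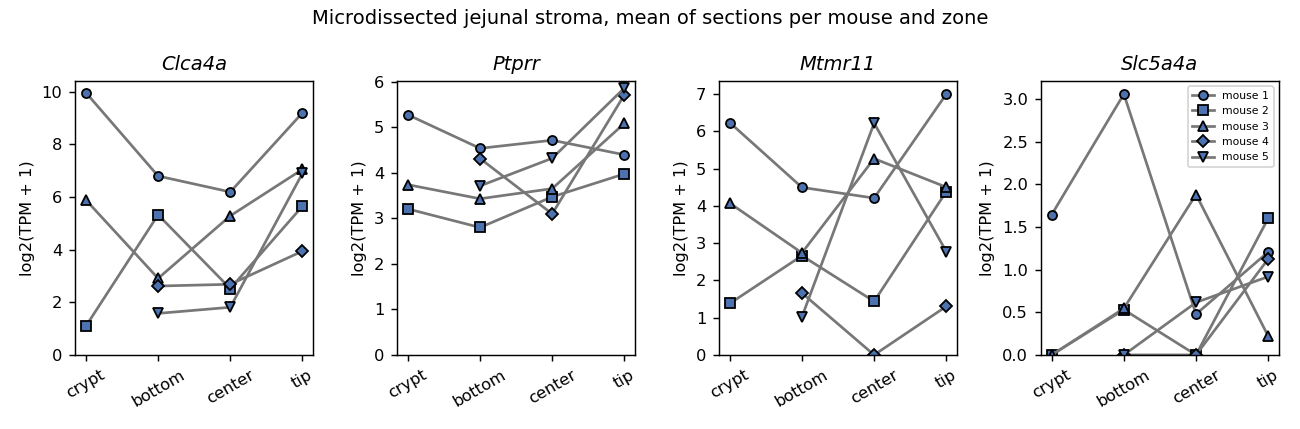
log2(TPM + 1) of the 4 genes in stroma of the crypt, villus bottom, center and tip. Each point is the mean of the sections of 1 mouse. *Clca4a* is higher at the tip than at the bottom in each of 5 mice, with a wide spread between mice in every zone.

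None of the 4 genes differed between tip and crypt beyond the spread of the mice. The log2(TPM + 1) differences were 0.90 for *Clca4a* (exact permutation p = 0.714), 0.93 for *Ptprr* (0.196), 0.10 for *Mtmr11* (0.946) and 0.47 for *Slc5a4a* (0.393), where the smallest possible p was 0.0179. This comparison is of 5 mice against 3 and is not paired. With the mouse as a block, limma gave 1.86 (95% interval -0.42 to 4.15) for *Clca4a*, 0.73 (-0.61 to 2.08) for *Ptprr* and 0.86 (-1.38 to 3.104) for *Mtmr11*. In limma's fit with no mouse term 0 of 11962 genes passed (0%), and 372 had an unadjusted p under 0.05. With the block 0 passed, and 366 had an unadjusted p under 0.05. Without mouse 2, whose crypt was low for both genes, the differences were -1.15 for *Clca4a* and -1.26 for *Mtmr11*. The order of the zone medians for *Clca4a* was tip (119), crypt (58.2), bottom (6.52) and center (5.43), and neighbours in this order overlapped. The medians of *Ada* (273, 87.2, 32.5 and 29.9 TPM) and *Slc28a2* (14.6, 12.3, 4.65 and 2.68) had the same order. *Nt5e* did not, with its lowest median in crypt (2.43). Over the 18 mouse and zone means, which share mice and the scaling of TPM, the correlation with the sum of *Vil1* and *Cldn7* was 0.69 for *Clca4a*, 0.23 for *Ptprr*, 0.49 for *Mtmr11* and 0.32 for *Slc5a4a*. The part of carried-over epithelium in these values was not tested.

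Between the paralogs, *Clca4b* was higher at the tip than at the bottom in 4 of 5 mice, by 0.52 on the log2(TPM + 1) scale (SE 0.92, exact permutation p = 0.5). *Slc5a4b* was higher at the tip in 5 of 5 mice, by 0.79 (SE 0.61, exact permutation p = 0.0625). Its tip values were 36.5, 17.4, 7.39, 18.8 and 12.4 TPM and its bottom values 10.9, 14.1, 6.52, 4.98 and 11.3. In the single cells the same gene had lower values in the tip-gene-high cells of 4 of 4 mice. Sharing of reads between paralogs was not tested for the LCM values.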

How the data were processed

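Jejunal epithelium (8 mice), single cells (8 mice) and LCM stroma (29 samples) of the mouse were measured by RNA-seq. For the epithelium and the single cells the authors deposited raw UMI counts, which they obtained with zUMIs and a GRCm38 reference. The authors made the LCM values as TPM with kallisto and sleuth, and deposited them per gene. TPM keeps no depth, so the depth of the LCM samples is unknown. The submitters' processing notes name bcl2fastq 2.15.0.4.

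Epithelial genes above 1e-05 of the UMIs in at least 2 samples were fitted with edgeR 4.0.16 in R 4.3.3 (TMM, robust quasi-likelihood test, batch as a term). The batches, given by the study, are samples 1 and 2 and samples 3 and 4. A cell was kept if it had between 400 and 8000 UMIs over 250 genes or more. Before its own filter the study subtracted a background per plate, taken from empty wells. No such background was subtracted here. Doublet gates were included, and no doublet caller was run. UMIs were summed per mouse and class with *Ada*, *Nt5e* and *Slc28a2* left out, and fitted with edgeR with the mouse as a term. A plate of 352 wells matched no sample and was not used. LCM sections were averaged per mouse and zone, 104 repeated symbols were summed, and genes with a zone mean above 5 TPM were fitted with limma 3.58.1 on log2(TPM + 1). Of 5 epithelial markers 2 were used in the LCM table, and the rest were not analysed there. Each fit was also run on simulated data with no batch or mouse effect, which are simpler than the measured data. The adjusted p threshold was 0.05.

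The 4 genes and all gene lists were chosen with earlier results of these data known. Named besides them are the paralogs, list genes past the threshold, up to 4 family genes with the highest control level, the 3 genes nearest to each of the 4, and the 5 largest increases in the single cells. *Mgam*, *Sis* and *Lct* in the epithelium, and the examples of lists in which all genes passed, were picked from their lists after the values were seen. Some genes that this rule names are not reported here, and they stay in the counts and medians of their lists.

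Deviations from the group means correlated between epithelial samples of the same number by 0.612, 0.415, 0.657 and 0.584, following the batches, since within batches the correlation was -0.163 and -0.0590. In the single cells the fit pairs the classes by mouse. In the stroma the main limma fit has no mouse term, a block by mouse was an alternative, and only the permutation test of tip against bottom was paired. Alternatives were other normalizations, filters and tools (DESeq2 1.42.0), blocks, gates, class thresholds, pseudocounts and leaving out each mouse.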

Additional observations from a re-analysis of the deposited data

Results flagged for a closer look

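In 28 groups of 4 or 5 mice, 7 had 1 mouse far from the others by Dixon's criterion. For normally distributed values chance alone gives this in about 1 of 20 groups. The values here were not transformed, and some groups were skewed or held zeros, so the 7 cannot be set against that rate. In the control epithelium, *Ptprr* was at 91.4 CPM in control 3 and at 72.1 to 74.5 in the other 3. At the villus tip of the stroma, mouse 1 had 588 TPM of *Clca4a*, against 14.4 to 132 in the other 4, and 127 TPM of *Mtmr11*, against 1.47 to 21.7. At the villus bottom the same mouse had 21.6 TPM of *Mtmr11*, against 1.03 to 5.68, and 7.34 TPM of *Slc5a4a*, against 0 to 0.459. In the villus center, mouse 3 had 2.68 TPM of *Slc5a4a*, against 0 to 0.533. Among tip-gene-high cells, *Slc5a4a* was at 0.375 UMIs per 100000 in mouse A, from 1 UMI, and at 0 in the other 3 mice.

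Cells outside the main comparison carried the same genes. In 41 cells that had no *Epcam* UMI but 3 or more tip-gene UMIs, *Clca4a* was at 153 UMIs per 100000, *Ptprr* at 23.6 and *Mtmr11* at 20.2. In the 1091 cells with neither, these levels were 2.83, 1.91 and 2.06. The source of this difference was not tested.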

How the results depend on the processing

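The epithelial differences of *Clca4a*, *Ptprr*, *Mtmr11* and *Slc5a4a* had their direction set by the choice of the genes, and over 15 alternatives their sizes were -2.22 to -1.70, -1.11 to -0.98, -1.42 to -1.31 and -2.40 to -1.72 on the log2 scale. The number of all genes called there, 32, was less steady: 37 with RLE size factors, 159 with DESeq2 (114 lower, 45 higher), 635 without a filter (333 lower, 302 higher), 1 without the batch term, 3 with the replicate block, 0 within batch a and 5 within batch b. Leaving out 1 mouse gave 3 (without control 1) to 42 (without DT mouse 1). Without controls 3 and 4 in turn it was 10 and 11, and without DT mice 2 and 3 it was 7 and 9. The cause was not tested, and the last settings also had fewer samples.

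In the single cells, *Clca4a* was higher in 15 of 15 alternatives, at 5.11 to 5.78, and *Ptprr* and *Mtmr11* in 11 of 11 each. The 851 genes called became 456 without the gates for cell pairs and 712 without the pairing by mouse, and 450 (without mouse A) to 1074 (without mouse H) when 1 mouse was left out. Without mouse G it was 504. Limiting the other cells to those with 3 or more UMIs of 8 enterocyte genes, an alternative chosen after seeing the data, gave 835. With cells from 200 UMIs, *Slc5a4a* was at -0.82, against -2.44. In the stroma, tip against crypt gave 1 called gene without the filter on low values, against 0 in all other settings. *Mtmr11* turned to -0.37 when divided by the epithelial markers, and without mouse 2 *Clca4a* turned to -1.15 and *Mtmr11* to -1.26. Leaving out 1 mouse gave -1.15 to 2.40 and -1.26 to 0.77 for these genes. The pairing by mouse changed no call in the stroma.

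The UMI depth per cell limits *Ptprr*, *Mtmr11* and *Slc5a4a*, which had under 100 UMIs each in tip-gene-high cells. The 4 mice of the single cells cannot reach 0.05 in a permutation test.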
